A study of Mus musculus with 8 samples.

Results

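The sites described here are called adenines in 3 short stretches of mouse chromosomes 14, 2 and 9 that lie outside the centromeric ends of the assembly and carry copies of satellite DNA. They were chosen by coordinates (mm10): every call on chromosome 14 from 19400001 to 19500000, on chromosome 2 from 98600001 to 98700000 and on chromosome 9 from 35300001 to 35310000. The windows were proposed for their many calls and high coverage, so both are a description and neither was tested. The rule took 360 of the 17418 sites of the series, or 171 of its 16845 distinct bases. The island on chromosome 14 held 217 sites at 109 bases, that on chromosome 2 held 113 sites at 50 bases, and that on chromosome 9 held 30 sites at 12 bases.

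The cells were TT2 mouse embryonic stem cells, a line from a C57BL6 x CBA cross, kept without feeders and used between passage 5 and 10. Wild-type (WT) cells were compared with Alkbh1 knockout (KO) cells. Alkbh1 encodes a dioxygenase of the AlkB family that has been described as removing the methyl group of N6-methyladenine. Chromatin was precipitated without crosslinking with a customized antibody to the histone variant H2A.X. The DNA, in a long (L) and a short (S) part, was read by single-molecule real-time sequencing. Each of the 4 groups, WT and KO in L DNA and WT and KO in S DNA, had 2 replicates, joined in 1 list, so a difference between groups has no replicate check and no p-value is given. Whether the KO cells came from 1 clone is not given in the labels. A list of called bases holds no expression, so neither the cell type nor the knockout could be checked in it.

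Satellites are long tandem arrays of a short unit. In the mouse the major satellite fills the pericentromeric heterochromatin and the minor satellite, which carries the binding box of the protein CENP-B, lies at the centromere. Small patches of satellite also occur within chromosome arms. In single-molecule sequencing the polymerase pauses at some modified bases. The pause before a base, the inter-pulse duration (IPD), is set against the one predicted for unmodified DNA as the IPD ratio, and a ratio of 1 is no extra pause. Each call also carries its coverage, a score on the caller's own scale (the lowest listed was 20), an identification score for N6-methyladenine and, from a coverage of 11, an estimated modified fraction.

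All 12 called bases on chromosome 9 lay within the bounds of the long noncoding RNA gene Gm33838 (35285514 to 35307723). The nearest genes outside it were 4933422A05Rik and Gm33974, both of the same class. The calls on chromosome 14 lay in no gene of the RefSeq table. They ran from 19415767 to 19419591, with the pseudogene Gm9637 ending 10675 bases before and the noncoding Gm41101 starting 65285 bases after. The calls on chromosome 2 ran from 98662211 to 98667176 and lay in no gene either. The pseudogene Gm13806 ended 60754 bases before them and the noncoding Gm33780 started 35423 bases after. Exons and introns were not used here.

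Calls at the edges of the windows were as follows. On chromosome 14 the first call inside had a coverage of 197 and the last outside before it, at 19368099, one of 16. On the far side the last call inside had 11 and the next outside, at 19791579, had 43. On chromosome 2 the outermost calls inside had 11 and 4375, and the nearest outside, at 98473570 and 98890203, had 13 and 6. On chromosome 9 they had 131 and 3175, against 7 and 8 at 35161751 and 35532656.

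A 41-base context with the called adenine at its centre is deposited with each call. No mm10 genome was used, so sequence was read from these contexts alone. A closed walk through their most common 16-base words (1062 contexts, those of the islands and of the satellite-rich start of chromosome 9 and contig JH584304) gave a repeat unit of 234 bases. It is shown because the results below are placed on it, with capitals at the 5 adenines (a T where the adenine is on the other strand) that were called in all 3 islands.

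repeat unit: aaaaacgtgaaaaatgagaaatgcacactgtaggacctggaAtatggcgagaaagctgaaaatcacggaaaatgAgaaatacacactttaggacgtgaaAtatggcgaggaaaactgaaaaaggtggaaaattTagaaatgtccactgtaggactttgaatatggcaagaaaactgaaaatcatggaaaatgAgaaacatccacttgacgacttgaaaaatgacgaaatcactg

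From textbook knowledge the unit is of the type of the mouse major satellite, and no satellite consensus was among the sources used here. Of the 171 bases, 143 lay in contexts that matched it at 31 or more of 41 bases without gaps, 100 of 109 on chromosome 14, 32 of 50 on chromosome 2 and 11 of 12 on chromosome 9. At the limit, 3 bases matched at 31 and 4 at 30. The unit thus fitted chromosomes 14 and 9 for nearly all bases, and chromosome 2 for 32 of 50. Only the match to this unit was checked, so a base off it may still lie in another satellite. Of the 18 such bases on chromosome 2, 13 were linked to each other by shared words, as described below. Where the overlapping contexts were joined, no letter conflicted. The longest joined stretch of each island is printed on its plus strand, with capitals at the called bases (A for a call on the plus strand, T for one on the minus strand).

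chr14:19418127-19418326: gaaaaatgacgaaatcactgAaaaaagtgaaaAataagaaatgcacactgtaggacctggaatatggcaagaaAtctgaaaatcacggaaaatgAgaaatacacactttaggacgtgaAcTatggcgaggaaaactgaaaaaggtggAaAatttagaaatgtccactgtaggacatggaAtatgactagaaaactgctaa
chr2:98666523-98666686: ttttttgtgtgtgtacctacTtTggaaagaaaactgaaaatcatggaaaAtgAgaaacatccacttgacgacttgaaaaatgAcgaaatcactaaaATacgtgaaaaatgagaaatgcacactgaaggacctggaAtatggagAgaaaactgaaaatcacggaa
chr9:35305196-35305348: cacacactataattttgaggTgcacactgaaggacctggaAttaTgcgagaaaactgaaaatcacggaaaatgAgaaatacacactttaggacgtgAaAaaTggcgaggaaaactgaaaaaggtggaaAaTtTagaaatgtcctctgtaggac

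The joined contexts covered 2378 bases on chromosome 14, 1223 on chromosome 2 and 235 on chromosome 9. At a lag of 234 bases, 55.9% of the compared letters were equal on chromosome 14 and 48.3% on chromosome 2. Other lags did as well: 351 bases gave 55.5% on chromosome 14, and 251 and 116 bases gave 48.7% and 48.1% on chromosome 2. On chromosome 9, where the stretches are short, the highest share was 59.1% at 118 bases. The lags alone therefore do not single out 234 bases.

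Chromosome 14 had 55 sites in WT and 49 in KO cells in L DNA, and 63 and 50 in S DNA. Chromosome 2 had 24, 35, 28 and 26, and chromosome 9 had 6, 7, 8 and 9, in the same order. The KO to WT ratio of sites was 0.891 in L (95% exact interval 0.594 to 1.33) and 0.794 in S (0.536 to 1.17) on chromosome 14. For chromosome 2 the L ratio was 1.46 (0.843 to 2.56) and the S ratio 0.929 (0.523 to 1.64). For chromosome 9 they were 1.17 (0.336 to 4.20) and 1.13 (0.385 to 3.35). All 6 intervals, which cover counting error only, included a ratio of 1. At a score of 30 or more the ratio on chromosome 2 was 1.0 in L (17 sites in each) and 1.31 in S (16 in WT, 21 in KO), so the direction in S turned. At an identification score of 20 or more the S ratio on chromosome 9 turned to 0.875 (8 and 7 sites). Over the whole lists the ratio was 0.788 in L and 0.472 in S. Sites outside the islands had a median coverage of 14 (WT) and 12 (KO) in S, against 424 and 294.5 on chromosome 14. The whole-list ratios are therefore not a like comparison for the islands. The difference of the island ratios from the rest was not tested.

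Coverage was far above the rest of the series. The median coverage of a site on chromosome 14 was 191 in WT and 194 in KO for L DNA, and 424 and 294.5 for S DNA. In the same order it was 1458, 939, 1464 and 662 on chromosome 2, with a highest value of 10725, and on chromosome 9 it was 424, 553, 1244.5 and 996. Sites outside the islands had medians of 10, 10, 14 and 12. Of the sites with a coverage above 1000, the islands held 14 of 15 (WT) and 16 of 16 (KO) in L, and 22 of 26 and 14 of 17 in S. How reads were assigned to near-identical copies is not given in the sources used here, so a value at 1 copy may hold reads of another.

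The scores were high and the pauses small. The highest score was 440 in the islands and 177 outside. Of the 20 highest scores of each list, the islands held 13 (WT) and 14 (KO) in L, and 16 and 18 in S. The share of sites with an identification score of 20 or more was 62.7% on chromosome 14, 74.3% on chromosome 2 and 86.7% on chromosome 9, against 13.3% outside. It was 39.2% at the satellite-rich start of chromosome 9 and 39.9% on contig JH584304, between the islands and the rest. The median IPD ratio over the 4 lists was 1.70, 1.5 and 1.86, against 2.60 outside. The median modified fraction was 24.7%, 23.1% and 29.2%, against 68.7% outside. The other satellite-rich regions had similarly low values. The median IPD ratio was 1.75 at the start of chromosome 9 and 2.02 on contig JH584304, and the median fraction was 28.6% and 34.2%. The start of chromosome 9 thus lay below the chromosome 9 island in both. Within the islands bases of higher coverage had lower IPD ratios, with a Spearman correlation over bases of -0.47 on chromosome 14, -0.58 on chromosome 2 and -0.85 on chromosome 9. These bases share libraries and sequence, and every call had to pass the lowest score of 20, so the correlation is a description. The part of coverage in the lower ratios was not tested.

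**Figure D1:**
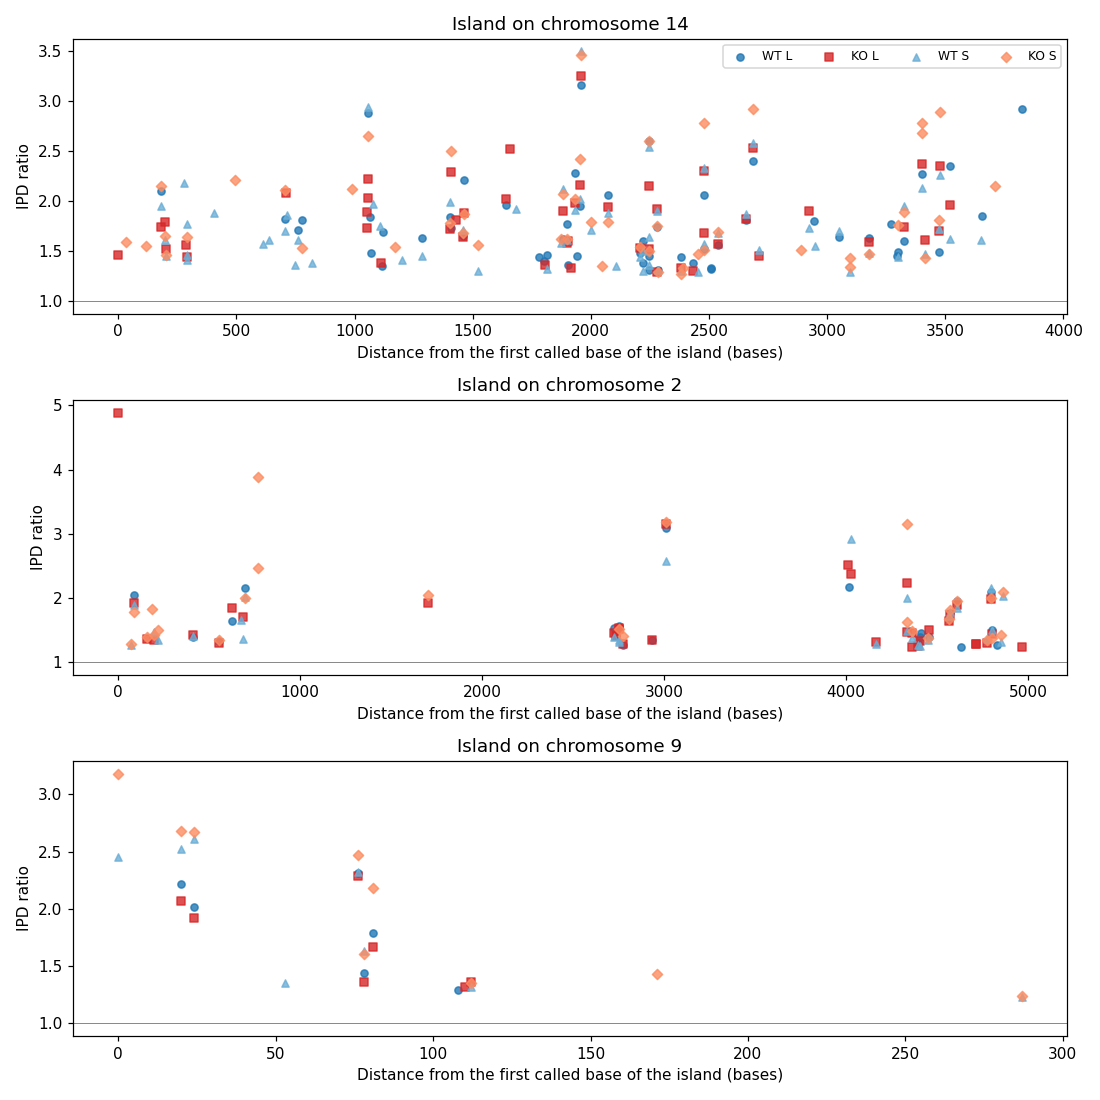
IPD ratio (vertical axis, no unit) of each site against its distance in bases from the first called base of the island, for the islands on chromosomes 14, 2 and 9, with 1 symbol per list. Symbols of different lists stand above each other at many positions, and the highest ratios on chromosome 14 are the 4 values of 3.16 to 3.5 at 1 base.

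**Figure D2:**
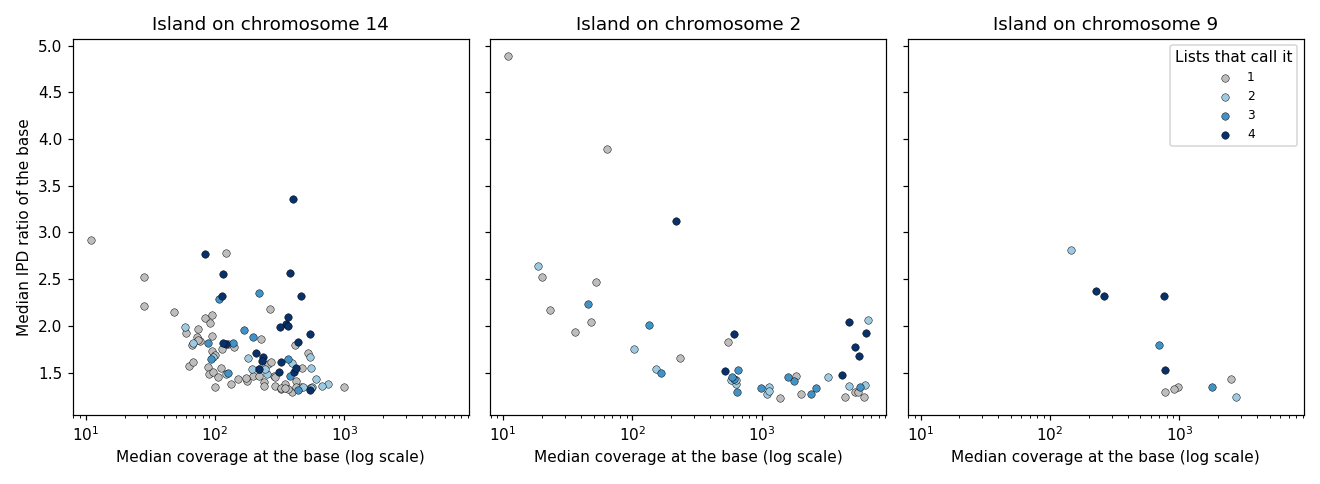
Median IPD ratio of each called base against its median coverage (log scale), by island, with shading for the number of lists that call it. Ratios above 2.5 lie mostly at low coverage, and on chromosome 2 the bases with a coverage above 1000 stay near or below 2.

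The same bases were called again in other lists. Of the KO L sites, 61.2% (30 of 49, 95% exact interval 46.2 to 74.8) on chromosome 14, 54.3% (19 of 35, 36.6 to 71.2) on chromosome 2 and 71.4% (5 of 7, 29.0 to 96.3) on chromosome 9 were called in WT L, beside 4.63% of all KO L sites. Of the KO S sites, 68.0% (34 of 50), 73.1% (19 of 26) and 77.8% (7 of 9) were called in WT S, beside 4.78% of all KO S sites. Between the DNA parts the shares were also high. Of the WT S sites, 54.0%, 50.0% and 50.0% were called in WT L, beside 2.38% of all WT S sites, and of the KO S sites 58.0%, 61.5% and 66.7% were called in KO L, beside 3.56% of all KO S sites. At the satellite-rich start of chromosome 9 28.4% of KO L and 39.2% of KO S sites were called in the matching WT list. On contig JH584304 the shares were 33.8% and 32.9%. Coverage differed as well: the median over the 4 lists was 92 at the start of chromosome 9 and 67 on the contig, against 277, 1073 and 691.5 in the islands. Its part in the recurrence was not tested.

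Calls in all 4 lists were made at 23 bases on chromosome 14, 8 on chromosome 2 and 4 on chromosome 9. A call in 1 list alone was made at 58, 16 and 4 bases. A base not listed may have been just under the lowest score, since the lists hold called bases alone and the depth elsewhere is unknown. On chromosome 14 the bases of 1 list had a median highest score of 29 and those of 4 lists one of 77. On chromosome 2 the values were 27.5 and 128, and on chromosome 9 they were 28 and 222. Not all bases missing from a list scored low elsewhere. The highest score of a base called in 1 list alone was 109, 91 and 48 on chromosomes 14, 2 and 9. The plus-strand base 98667070 on chromosome 2 scored 235 (WT) and 257 (KO) in S and was called in neither L list. At 98667009, close by, coverage in L was 4942 and 4427. At 98667037, closer still and called in WT L alone, it was 2010.

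The highest score on chromosome 14 belonged to the minus-strand adenine at 19417726. In L DNA its IPD ratio was 3.16 (WT) and 3.25 (KO), and in S DNA it was 3.5 and 3.46, at a coverage of 384, 407, 569 and 391. Its modified fraction was 81.9%, 85.0%, 91.8% and 85.2%. Both S lists were slightly above both L lists, and KO and WT overlapped. Its neighbour on the plus strand, 19417723, was also called in all 4 lists, with IPD ratios of 1.95, 2.16, 2.02 and 2.42.

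Other recurrent bases of chromosome 14 had smaller pauses. At 19418245 on the plus strand the ratio was 2.06 in WT and 2.30 in KO in the L part, and 2.33 and 2.78 in the S part. At 19418247 on the minus strand, in the same stretch printed above, it was 1.52, 1.68, 1.57 and 1.51. The first of these was higher in KO than in WT in both parts, the second only in L. At 19417841 on the minus strand the ratios were 2.06, 1.94, 1.88 and 1.79, lower in KO in both parts. At 19418047 on the minus strand they were 1.74, 1.92, 1.90 and 1.75. The genotypes overlapped there. The base with the highest coverage of the island was 19418147 on the plus strand, at 475, 543, 1030 and 548. Its ratios were 1.44, 1.33, 1.30 and 1.27, the last being the lowest of the island, with modified fractions of 21.5%, 5.10%, 11.7% and 4.0%.

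On chromosome 2 the highest coverage of the series was at the minus-strand adenine 98666821, with 6091 (WT) and 5346 (KO) in L, and 10725 and 6602 in S. Its IPD ratio was 1.96, 1.89, 1.84 and 1.95, a range of 0.12. The plus-strand adenine 98662300 has the same 41-base context in an inverted copy of the repeat. It had lower coverage (454, 510, 1472 and 718) and IPD ratios of 2.04, 1.93, 1.89 and 1.78. The ratios of the 2 copies overlapped. The context they share is printed on the strand of the call, with a capital at the called base.

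chr2:98666801-98666841, minus strand, and chr2:98662280-98662320, plus strand: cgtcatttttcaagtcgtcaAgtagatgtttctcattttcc

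The highest score on chromosome 2, 314, was at 98667009 on the plus strand. Its IPD ratio was 2.09 (WT) and 1.99 (KO) in L, and 2.15 and 2.0 in S. Both KO values lay below both WT values. Its neighbour at 98667011 on the minus strand had 1.51, 1.44, 1.51 and 1.38, again lower in KO. A nearby pair had nearly equal values in all lists: 98666776 on the plus strand with 1.68, 1.64, 1.72 and 1.68, and 98666780 on the minus strand with 1.76, 1.73, 1.78 and 1.81. At these 4 bases, with coverage from 3803 to 9781, the lists differed by at most 0.16.

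The largest and the smallest IPD ratios on chromosome 2 were at bases called in KO L alone. The largest, 4.89, was at 98662211 on the minus strand at a coverage of 11, and the smallest, 1.23, at 98666572 on the plus strand at a coverage of 1372. One of several groups of 3 like contexts, the most in this island, ran from 98662282 on the minus strand to 98666839 on the plus strand. These ends had the same context. Ratios there were 1.27 (WT) and 1.28 (KO) in S at the first base, and 1.24 in L in WT cells at the second, at a coverage of 1456, 732 and 6191.

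On chromosome 9, bases called in all lists were at 35305236, 35305292 and 35305294 on the plus strand and 35305240 on the minus strand. At 35305236 L DNA had IPD ratios of 2.22 (WT) and 2.07 (KO), and S DNA had 2.52 and 2.68. In that order the ratio at 35305240 was 2.02, 1.92, 2.61 and 2.67. At 35305292 it was 2.31, 2.29, 2.32 and 2.47, and at 35305294 it was 1.44, 1.36, 1.63 and 1.61. At each of the 4 bases both S values lay above both L values, by 0.01 to 0.59 at the closest. Coverage was also higher in S: at 35305292 it was 425, 550, 1509 and 986.

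The other named bases of chromosome 9 were called in fewer lists. The minus-strand base 35305216 had S-part IPD ratios of 2.45 in WT and 3.18 in KO cells. The minus-strand base 35305297 had 1.79 (WT) and 1.67 (KO) in L, and 2.18 in S in KO cells. The minus-strand base 35305328 had 1.36 in KO cells in L, and 1.32 (WT) and 1.35 (KO) in S. The bases 35305269, 35305324 and 35305326 were each called in 1 list, with ratios of 1.35, 1.29 and 1.32. The lowest ratio, 1.23 in WT S and 1.24 in KO S, was at 35305503, which had the highest coverage of the island, 3175, in WT S.

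**Figure D3:**
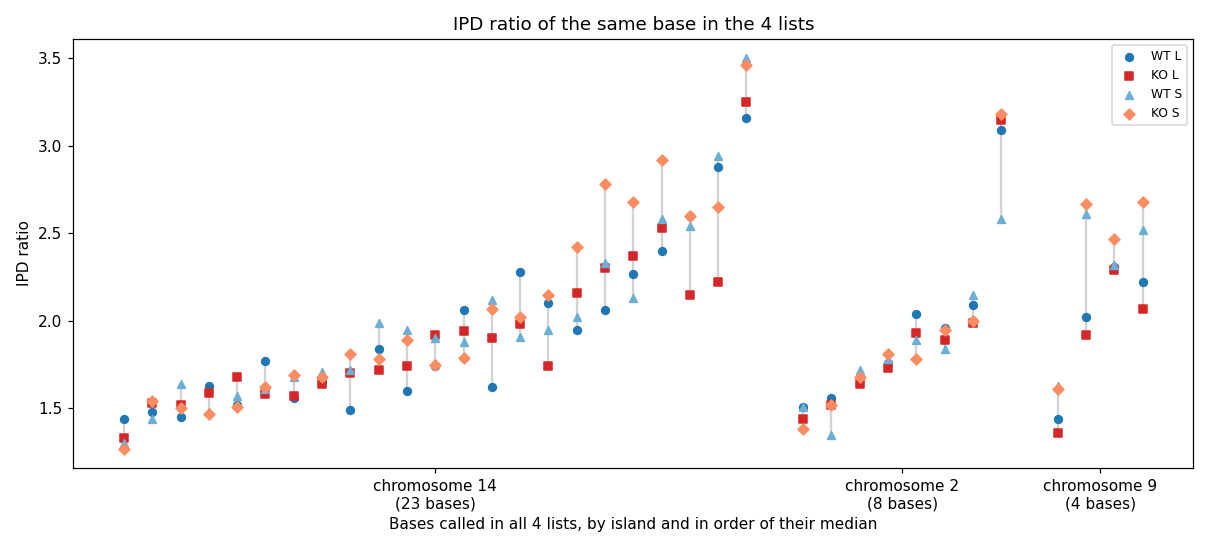
IPD ratio of the 35 bases called in all 4 lists, grouped by island and ordered by their median, with 1 symbol per list and a grey line over the range. The ranges are short against the spread between bases, except on chromosome 9, where the S symbols stand above the L symbols.

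At shared bases, which had to be called in both lists, the median difference between the KO and WT IPD ratios was small. On chromosome 14 the median KO minus WT difference was 0.03 in L (30 bases, 17 higher and 13 lower) and 0.025 in S (34 bases, 20 higher and 14 lower). On chromosome 2 it was -0.03 in L (19 bases, 5 higher and 14 lower) and 0.03 in S (19 bases, 12 higher and 7 lower). On chromosome 9 it was -0.10 in L (5 bases, all lower) and 0.06 in S (7 bases, 6 higher). The sign was thus opposite in L and S on chromosomes 2 and 9. Over all shared bases of the series, islands included, the median was -0.01 in L and 0.04 in S. The mean differences on chromosomes 14, 2 and 9 were -0.014, -0.016 and -0.094 in L. In S they were 0.089, 0.115 and 0.16, larger than the medians, beside 0.110 over all shared bases of the series. Differences at single bases in S ran from -0.29 to 0.63, from -0.15 to 1.16 and from -0.02 to 0.73. Among bases called in all lists, both KO values exceeded both WT values at 3 of 23, 1 of 8 and 0 of 4 bases, and lay below them at 2, 2 and 0.

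The S minus L difference was 0.025 in WT and 0.11 in KO on chromosome 14, -0.13 and 0.045 on chromosome 2, and 0.245 and 0.38 on chromosome 9. On chromosome 9 the ratio was higher in S at 4 of 4 shared bases in WT and at 5 of 6 in KO. The SD of the 4 values of a base was 0.17, 0.12 and 0.25 in the 3 islands, against an SD between the means of bases of 0.48, 0.49 and 0.42. The 4 lists are different groups, so the first SD holds any difference between groups as well as error.

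Coverage at shared bases differed more. The median KO to WT ratio in L was 1.01 on chromosome 14, 0.905 on chromosome 2 and 1.05 on chromosome 9. In S it was 0.525, 0.610 and 0.687, below 1 in each island. Over all shared bases of the series (islands included) it was 0.969 in L and 0.605 in S. The S to L ratio in WT was 1.61, 1.51 and 3.33, and in KO it was 0.976, 1.10 and 1.87.

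Copies of the repeat allowed the same adenine to be compared at several places. Grouped at 4 or fewer mismatches in 41 bases, the 171 contexts formed 105 groups, 84 of them with a single base. The largest group held 10 bases, and 5 groups had members in all 3 islands. Of the 143 placed bases, 133 fell on 53 of the 148 adenines of the unit's strands, and the other 10 fell where the unit has another base. Of the 53 adenines, 5 were called in all 3 islands. They were unit positions 42, 75, 100 and 193 on the unit's plus strand and 134 on its minus strand, with 7 to 10 called copies each. The median IPD ratio of a copy ranged from 1.24 to 1.54 at position 75, from 1.43 to 2.57 at position 100, from 1.35 to 1.82 at position 193 and from 1.36 to 3.89 at position 42. Copies of position 75 were therefore the most uniform. An identical context was shared by 19415767 and 19416586 on chromosome 14, 98662430 and 98667176 on chromosome 2, and 35305269 and 35305503 on chromosome 9. This context of position 75 was also called at 4 bases outside the islands, with ratios from 1.23 to 1.5 over the 10 places. The context of position 193 that is identical to the unit had a wider range, 1.26 to 2.02 over 11 places. Of these, 4 were in the islands, and the 2.02 was on contig JH584304 at a coverage of 37.

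**Figure D4:**
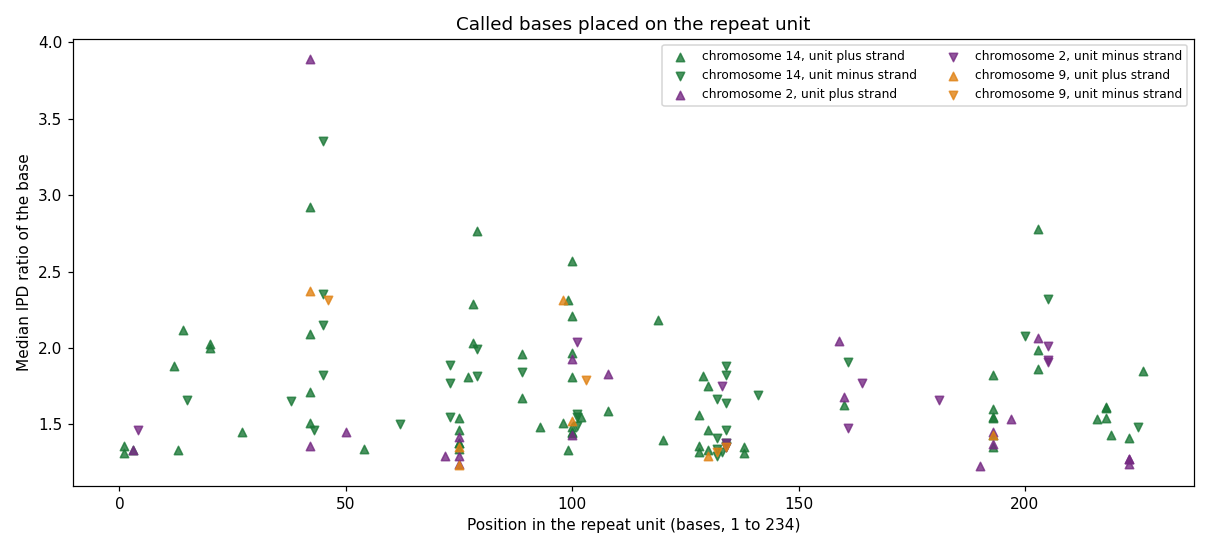
Median IPD ratio of each placed base against its position in the repeat unit (1 to 234), by island and by strand of the unit. Columns of symbols at positions 42, 75, 100, 134 and 193 are copies of the same adenine, tight at 75 and spread at 42 and 100.

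The copies of position 42 show how the sequence next to the call differed. The called adenine is base 21 of each line, and capitals mark bases that differ from the unit. The unit is a path of frequent words and need not have the most common base everywhere: 1 base of its line differs from all 7 copies.

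unit 42+: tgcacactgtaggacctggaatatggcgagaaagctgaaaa
chr14:19417723+: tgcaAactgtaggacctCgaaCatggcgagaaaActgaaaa
chr14:19418655+: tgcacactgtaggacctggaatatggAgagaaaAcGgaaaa
chr14:19419240+: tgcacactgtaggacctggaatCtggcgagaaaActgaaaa
chr14:19419591+: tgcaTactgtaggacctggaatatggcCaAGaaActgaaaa
chr2:98662978+: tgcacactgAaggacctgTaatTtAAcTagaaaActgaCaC
chr2:98666658+: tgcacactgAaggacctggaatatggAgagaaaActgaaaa
chr9:35305236+: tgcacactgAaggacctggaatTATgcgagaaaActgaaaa

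The 3 copies called in all 4 lists, at 19417723, 19419240 and 35305236, have 2, 1 and 3 differing bases within 5 bases of the call and median IPD ratios of 2.09, 1.71 and 2.37. The copies at 19418655 and 98666658 have none there, with medians of 1.51 and 1.36 in 1 and 2 lists. The copy at 19419591 also has none, with a ratio of 2.92 at a coverage of 11 in WT L alone. The copy at 98662978 has 4 and a ratio of 3.89 in KO S alone.

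At unit position 134 on the minus strand, 10 copies were called, and 6 of them are shown. Capitals again mark differences from the unit.

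unit 134-: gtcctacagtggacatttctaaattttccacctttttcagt
chr14:19416060-: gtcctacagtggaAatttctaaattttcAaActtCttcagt
chr14:19417230-: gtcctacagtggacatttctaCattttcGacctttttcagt
chr14:19418047-: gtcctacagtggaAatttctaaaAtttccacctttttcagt
chr14:19418864-: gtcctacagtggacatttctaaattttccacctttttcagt
chr2:98666984-: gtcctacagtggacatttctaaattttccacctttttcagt
chr9:35305328-: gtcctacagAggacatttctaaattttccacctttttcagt

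The copies at 19417230 and 19418047, which each differ at 1 base within 5 bases of the call, had median IPD ratios of 1.88 and 1.82 (in 3 and 4 lists). The other 8 copies have no difference there and ranged from 1.35 to 1.64. The copies identical to the unit on chromosomes 14 and 2 had 1.36 and 1.35, although their highest coverage was 903 and 8299. With places outside the islands, this identical context was called at 13 places, with ratios from 1.28 to 1.83. The ratios of 1.83 and 1.63, both in KO S on chromosome 9 outside the island, were at a coverage of 35 and 55. A ratio above the 1.82 of 19418047 thus also occurred without a near difference, at low coverage.

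The 143 placed bases were then split by whether any base within 5 bases of the call differed from the unit. The called base itself counted, so the 10 bases that fall where the unit has another base had a difference by definition. Among them, 19417975, 98666780 and 35305240 were called in all 4 lists. Of these, only 98666780 had no other difference within 5 bases. Of 85 placed bases with such a near difference 31 were called in all 4 lists, against 1 of 58 without one. Called bases close together can share the same difference, as 19418245 and 19418247 do, so the bases are not independent. Over the islands, 15 of the 35 bases called in all 4 lists had a call on the other strand within 5 bases. By the number of lists, a near difference was present at 30 of 66 bases called in 1 list, 12 of 26 in 2, 12 of 19 in 3 and 31 of 32 in 4. Adenines of the joined contexts that no list called had one at 374 of 807 (46.3%). This share was 57.5% on chromosome 14, 22% on chromosome 2 and 33.3% on chromosome 9, beside 21 of 22, 6 of 6 and 4 of 4 among placed bases called in all 4 lists.

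The median IPD ratio was higher at such bases in each island. It was 1.67 with and 1.46 without a near difference on chromosome 14, 1.83 and 1.36 on chromosome 2, and 2.32 and 1.34 on chromosome 9. Median coverage moved with it, at 235.5 with and 442 without over the 3 islands. At a coverage of 100 or more in every list that called the base, 29 of 62 with and 1 of 51 without were called in all 4 lists, with median ratios of 1.67 and 1.38. Of 13 unit adenines that were called in copies of both kinds, the median ratio was higher with a near difference at 11, lower at 1 and equal at 1, with a median difference of 0.19. Many of these rest on few copies. Plus-strand positions 3, 20 and 78 had 1 copy of each kind. Position 75 had 1 with a near difference and 9 without, and position 193 had 1 and 8. Coverage was not matched: at position 193 the copy with a difference had a median of 88, the others 219 to 6294.5. The comparison was chosen after the values were seen, and the unit was built in part from these contexts, so it is a description without a test. The part of the neighbouring sequence in the calls was not tested.

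**Figure D5:**
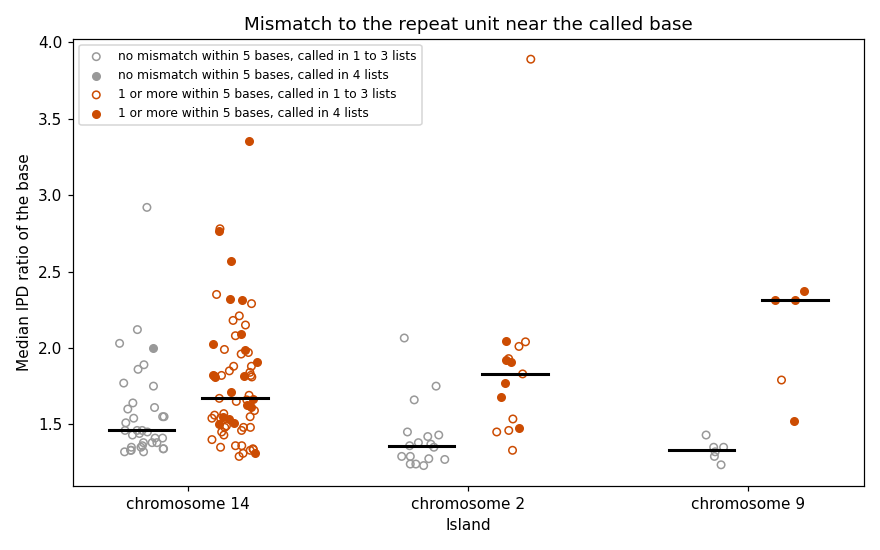
Median IPD ratio of each placed base, by island and by whether the called base or any base within 5 bases of it differs from the repeat unit. Filled symbols are called in all 4 lists and bars are medians; 31 of the 32 filled symbols are in the columns with a difference.

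Calls on both strands close together were frequent. A call on the opposite strand within 5 bases was present for 33 of 109 bases (30.3%) on chromosome 14, 10 of 50 (20%) on chromosome 2 and 8 of 12 (66.7%) on chromosome 9, against 295 of 16674 bases (1.77%) outside. The share was 12.4% (46 of 372) at the start of chromosome 9 and 18.9% (98 of 519) on contig JH584304. Calls are denser in the islands, and the part of density was not tested.

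The base after the called adenine was G for 36.0% of bases on chromosome 2 (95% exact interval 22.9 to 50.8), against 13.1% for the other adenines of the same contexts. On chromosome 14 the values were 20.2% (13.1 to 28.9) and 14.2%. The base after was T for 31.2% on chromosome 14 (22.7 to 40.8), against 18.9%. Outside the islands T was also more frequent there, at 29.1% against 21.4%. The base before was C for 11%, 12% and 25% in the 3 islands, against 17.5%, 19.9% and 20.8% of the other adenines. The chromosome 14 interval for C before the call (5.82 to 18.4) held the value of the other adenines. Larger departures on chromosome 14 were T before, 24.8% (17.0 to 34.0) against 12.5%, and C after, 9.17% (4.49 to 16.2) against 19.9%. On chromosome 2 the base after was A for 24% (13.1 to 38.2), against 44.8%. The bases of a repeat share their sequence, so these intervals are too narrow.

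The island on chromosome 2 held a further sequence that the unit did not match. Of its 18 bases off the unit, 13 were linked by shared 12-base words, from 98662624 to 98666377. Overlapping contexts share words by their position alone, as those of 98666221, 98666228 and 98666236 do. The 13 bases are therefore not 13 separate copies. Their median IPD ratio was 1.45 at a median coverage of 588, and 2 of them were called in all 4 lists. Outside the islands, 3 of 16674 contexts shared a 16-base word with them. Whether this sequence is a known satellite was not tested.

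The CENP-B box motif (TTCG, any 4 bases, A, any 2 bases, CGGG), searched on both strands, was found in 2 of the 16845 contexts of the series. Both were in this sequence on chromosome 2, and 0 of 16674 contexts outside the islands held it. The 2 places, chr2:98664941-98664955 on the plus strand and chr2:98666382-98666396 on the minus strand, have the same letters, TTCGTTGGAAACGGG. A match describes these letters and says nothing of binding. The joined stretch around the first is printed with capitals at its 5 called bases.

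chr2:98664914-98665003: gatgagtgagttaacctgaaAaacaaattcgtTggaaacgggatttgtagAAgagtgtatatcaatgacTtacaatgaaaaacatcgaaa

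The called minus-strand adenine at 98664946 lies within the motif. It had IPD ratios of 1.41 to 1.42 and was called in WT L and KO L. Next to the motif, 98664964 was called in all 4 lists with ratios of 1.56 (WT) and 1.52 (KO) in L, and 1.35 and 1.52 in S. The strongest base of this sequence was 98665221 on the plus strand, with 3.09, 3.15, 2.58 and 3.18 at a coverage of 247, 253, 183 and 127. Coverage was distributed over the DNA parts in a different way in the 2 sequences of the chromosome 2 island. At the 9 shared bases on the satellite unit the S to L coverage ratio in WT cells was 1.21 to 3.24, with a median of 1.79. At the 5 shared bases of the second sequence it was 0.507 to 0.95, with a median of 0.526. In KO cells the ratio was 1.02 to 1.41 at 10 bases on the unit and 0.468 to 0.606 at 4 bases of the second sequence. The ranges did not overlap in either genotype: S coverage was above L coverage at every shared base on the unit and below it at every shared base of the second sequence. This split was chosen after the values were seen. Neighbouring bases are covered by the same reads, so the bases are not independent and no test was made.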

How the data were processed

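Adenine calls of 8 samples in 4 groups came as 4 lists on mm10, per the submitters' processing notes, each joining the 2 replicates of a group. Aligner, caller version and filters were not given in the sources used here. The deposited score (lowest 20), the deposited coverage (a signal without normalization, counting passes or reads) and the deposited IPD ratio were used as the authors gave them, with no filter. The deposited modified fraction and identification score come from the authors' caller. Total depth is unknown.

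Sites were matched by position and strand. Shares and ratios of counts have exact Clopper-Pearson intervals at 95%, which cover counting error only. Contexts were placed on the repeat unit without gaps, so an insertion or deletion shifts the fit. The placement and matching code was tested on simulated data. The simulated unit was random and its copies had substitutions only, so gaps and look-alike places within a unit were not tried. Over the placed bases of the 3 islands, the best place exceeded the second best by a median of 8 matching bases and at the least by 1. Genes came from the RefSeq table of GRCm38.p6. Python 3.11.15, pandas 2.3.3, numpy 2.4.6 and scipy 1.17.1 were used.

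Members and lists were chosen with earlier results of these data known. Named bases were those called in all 4 lists (the 6 with the highest lowest coverage), the extremes of score, coverage and IPD ratio, up to 10 bases of chromosome 9 and the ends of the largest groups of like contexts. The bases at unit positions 42, 75 and 134 and the partner at 19417723 were named after their values were seen. So were 98667037, 98667070 and the bases of the second sequence on chromosome 2.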

Additional observations from a re-analysis of the deposited data

How the results depend on the processing

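No paired analysis was possible because each list joins both replicates of its group, and for the same reason no replicate could be left out. Counts of sites moved by over 1.5 times under an identification score of 20 or more on chromosome 14 (34 in WT L, 32 in KO L and 28 in KO S) and under a score of 30 or more on chromosome 2 (17 in KO L, 16 in WT S) and chromosome 9 (4 in KO L). At a score of 30 or more, 88.2% of KO L sites on chromosome 2 and 100% of 4 on chromosome 9 were called in WT L. At an identification score of 20 or more, 75% of 28 KO S sites on chromosome 14 were called in KO L. The KO to WT ratio of sites in S turned on chromosome 2, from 0.929 to 1.31 with the higher score minimum, and on chromosome 9, from 1.13 to 0.875 with the identification minimum. The causes were not tested. The mean KO minus WT difference on chromosome 14 in L was -0.014, against a median of 0.03. Other alternatives for shares, IPD differences and coverage ratios (a coverage of 25 or more, positions within 1 base, means, sums) moved no value beyond its interval or SD. That SD is the one between single bases, a wide limit for a median. Within it, at a score of 30 or more, the S minus L difference in WT on chromosome 2 went from -0.13 to 0. In KO on chromosome 9 it went from 0.38 to 0.56. Settings of the repeat unit were chosen after seeing the data. Over 9 of them the IPD ratio with minus without a near difference was 0.235 to 0.39 (0.36 as reported). Within 3 bases, 24 of 60 bases with a difference were called in all 4 lists, against 8 of 83 without. Within 10 bases the counts were 32 of 110 and 0 of 33. A unit from contexts outside the islands alone had 118 bases and gave 29 of 97 against 0 of 26. With that unit few placed bases had no near difference, so its 0 rests on few bases. Bases called at low coverage, and bases not listed, limit what the lists can compare.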
